A study of Mus musculus with 4 samples.

Results

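The mouse genes Fos, Jun, Junb and Fosl2 encode subunits of the transcription factor AP-1, and the open chromatin in and around them was followed across 4 hormone conditions. Members were all DNase I hypersensitive regions, from 4 deposited lists, that overlap 1 of 4 fixed mm9 windows: chr12:86760000-86870000 for Fos (110 kb), chr4:94660000-94780000 for Jun (120 kb), chr8:87450000-87550000 for Junb (100 kb) and chr5:32380000-32520000 for Fosl2 (140 kb). After regions that overlap between lists had been merged, the windows held 57 sites out of 103288 in the whole series. The cells were 7438 cells, a mouse mammary line in which tetracycline-regulated promoters drive the glucocorticoid receptor (GR), fused to GFP, and the estrogen receptor (ER), fused to Cherry. All 4 groups shared this line, charcoal-dextran serum and the withdrawal of tetracycline 24 h before hormone, so both tagged receptors were induced in the untreated cells too. The groups were untreated cells and cells exposed for 30 min to the synthetic GR agonist dexamethasone (Dex, 100 nM), to the ER agonist estradiol (E2, 100 nM) or to both at these doses (Dex+E2). Each group was 1 library, so every difference below is one between single libraries, without a replicate check or a p-value.

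AP-1 is a dimer of basic leucine zipper proteins. Proteins of the Jun family (Jun, Junb) can pair with each other or with proteins of the Fos family (Fos, Fosl2), while Fos proteins need a Jun partner to bind DNA well. Fos, Jun and Junb are immediate early genes whose transcription can be switched on within minutes by growth factors and stress, and Fosl2, also called Fra-2, is commonly induced later and for longer. Ligand-bound GR is known to work with AP-1 at many regulatory sites and to repress other AP-1 targets, and AP-1 is known to occupy many sites used by ER in mammary cells.

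The sequences just before the annotated starts of the 4 genes are shown because they are the proximal promoters of the 4 genes, in which elements bound by AP-1 and by the hormone receptors can be looked for. They come from RefSeq on GRCm38.p6, matched by symbol for 4 of 4 genes, and each is the 250 bases before the start, 5′ to 3′ on the gene's strand. Fos lies on the plus strand (chr12:85473640-85473889), Jun on the minus strand (chr4:95052223-95052472), Junb on the minus strand (chr8:84978749-84978998) and Fosl2 on the plus strand (chr5:32136222-32136471). These positions are not on the mm9 scale of the hypersensitive sites and cannot be set against them, so which site covers which start was not analysed here. Capitals mark matches to the motifs named below.
Fos: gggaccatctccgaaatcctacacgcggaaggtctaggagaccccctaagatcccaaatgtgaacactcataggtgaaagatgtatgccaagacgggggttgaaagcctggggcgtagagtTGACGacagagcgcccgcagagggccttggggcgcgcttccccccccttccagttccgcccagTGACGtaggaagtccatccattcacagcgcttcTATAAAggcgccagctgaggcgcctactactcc
Jun: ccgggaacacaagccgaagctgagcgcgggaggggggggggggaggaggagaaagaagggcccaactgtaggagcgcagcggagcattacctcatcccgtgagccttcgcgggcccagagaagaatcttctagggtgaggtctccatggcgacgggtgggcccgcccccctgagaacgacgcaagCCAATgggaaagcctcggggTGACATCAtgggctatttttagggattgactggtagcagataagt
Junb: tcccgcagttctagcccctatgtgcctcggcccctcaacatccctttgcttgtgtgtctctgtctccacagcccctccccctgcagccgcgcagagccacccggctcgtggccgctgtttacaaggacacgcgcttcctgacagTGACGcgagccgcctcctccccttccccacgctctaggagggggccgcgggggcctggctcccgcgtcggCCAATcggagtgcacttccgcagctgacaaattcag
Fosl2: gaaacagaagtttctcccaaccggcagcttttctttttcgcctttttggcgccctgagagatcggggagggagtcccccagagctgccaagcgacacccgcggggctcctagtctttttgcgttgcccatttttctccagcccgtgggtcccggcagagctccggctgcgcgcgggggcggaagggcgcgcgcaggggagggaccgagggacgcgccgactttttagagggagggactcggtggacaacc

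Motifs were searched on both strands of these 250 bases and, for comparison, of 32851 RefSeq promoter windows of the same length. The Fos sequence held TGACG, the core of the cyclic AMP response element (CRE), at 129 and 66 bases before the start, and a TATAAA box at 33. Jun held TGACATCA, the variant AP-1 and CRE element for which its promoter is known, at 45 bases before the start and CCAAT at 65. Junb held TGACG at 106 and CCAAT at 36 bases before the start. In Fosl2 no motif of the list was found. TGACG was in 17.8% of all windows, TGACATCA in 2.93%, TATAAA in 12.4% and CCAAT in 33.8%. The AP-1 site TGANTCA (6.75% of all windows), the complete CRE TGACGTCA (1.55%, which contains TGACG), the CArG box (1.47%), the GR palindrome AGAACA and TGTTCT with 3 bases between (0.00913%) and the ER palindrome GGTCA and TGACC with 3 bases between (0.0639%) were in none of the 4 sequences. This says only that these letters are not in these windows. GC content was 58.4% for Fos, 61.2% for Jun, 66.4% for Junb and 64.4% for Fosl2, against a median of 52.4%.

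MaxD and AveD describe a site in each library, the maximum tag density at its summit and the highest average tag density of its regions, both on a scale whose total is not stated. The lists held 35496 to 65879 regions per library. The median MaxD over the 20687 sites found in all lists was 30.1 untreated, 14.7 with Dex, 10.2 with E2 and 15.4 with both hormones, and 90.1% of these sites were lower in all 3 hormone libraries than untreated as deposited. Densities are therefore given as deposited, and folds are given relative to these library medians. MaxD was a whole multiple of 0.255, 0.245, 0.200 and 0.227 in the same order, and this step was read as 1 tag. Summits of the member sites in all 4 lists then held 28 to 649 tags. Intervals in parentheses are 95% intervals, exact Poisson for the tag count of a summit and exact conditional for the ratio of 2 counts, and cover counting error only. A site that a list lacks did not pass the calling threshold in that library, and closed chromatin cannot be read from its absence.

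Hypersensitive sites were listed around all 4 AP-1 genes under every condition. Of the 57 sites, 24 (42.1%) were in all 4 lists, against 20.03% of all sites of the series, and 16 (28.1%) were in 1 list only, against 58.8%. These differences were not tested. In untreated cells the median MaxD of regions was 20.4 (Fos), 30.4 (Jun), 18.4 (Junb) and 13.6 (Fosl2), against 8.93 over the whole list. Here and below, shares of listed or missing members therefore stand beside a series of weaker regions, without matching for density. The Jun window held 15 sites with 8 in all lists, the Junb window 16 with 8, the Fos window 11 with 4 and the Fosl2 window 15 with 4. By library the windows held 44 untreated, 44 Dex, 31 E2 and 45 Dex+E2 regions. Per 100 kb, the Junb window was the most densely filled, with 15 untreated, 14 Dex, 10 E2 and 13 Dex+E2 regions. In the same order the Jun window held 8.33, 11.7, 7.5 and 10.8. The Fosl2 window held 7.14, 5.71, 5 and 7.86 and the Fos window 8.18, 7.27, 4.55 and 7.27. The RefSeq table on GRCm38.p6 lists no other protein-coding gene within 50 kb of Fos, Jun or Fosl2. Around Junb it lists 8 (Mast1, Rtbdn, Rnaseh2a, Prdx2, Hook2, Best2, Get3 and Trir), so sites of the Junb window cannot be assigned to Junb alone. This search was centred on the genes and need not cover the whole mm9 windows. Sites of the Fos, Jun and Fosl2 windows were therefore not assigned to their gene either.

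**Figure D1:**
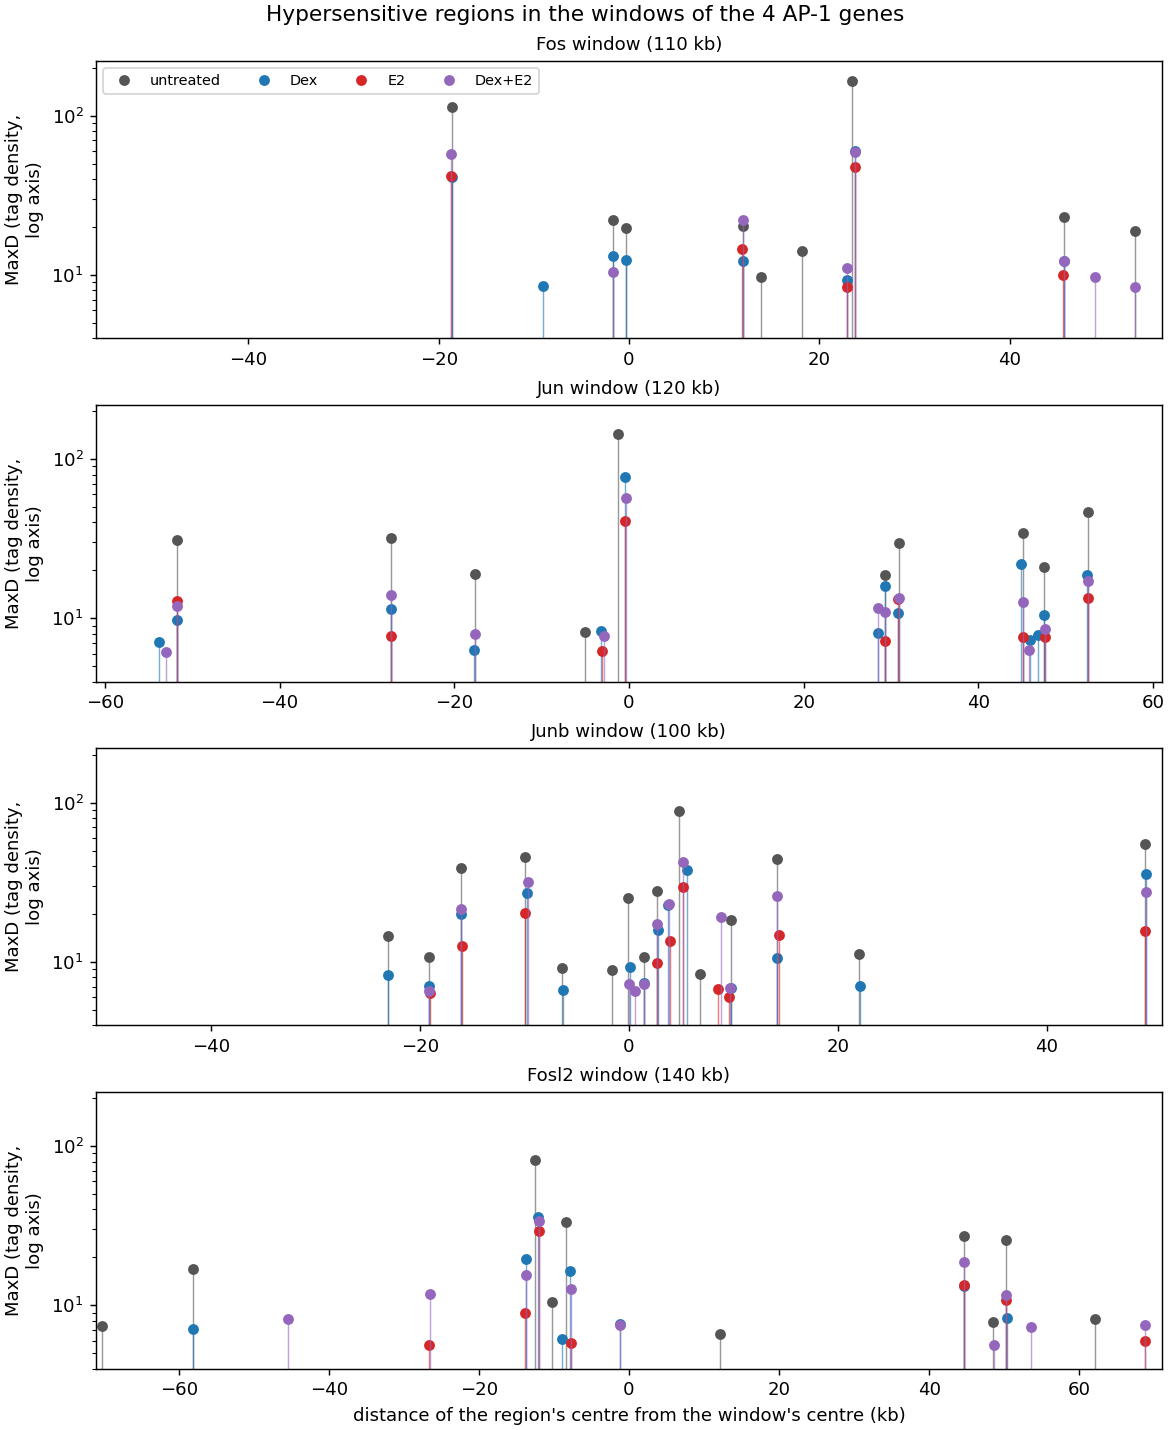
Regions of the 4 lists in each window, by distance of the region's centre from the window's centre (kb) and MaxD (tag density, log axis), with 1 point per region and 1 colour per library. The densest site of each window reaches 166 at Fos, 143 at Jun, 88.8 at Junb and 81.4 at Fosl2 in untreated cells.

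Fos, the founding member of its family and the classical immediate early gene, had its densest site at Fos site 8 (chr12:86837603-86839337). Its MaxD was 166 untreated, 59.8 with Dex, 47.4 with E2 and 58.8 with both hormones, and its AveD was 28.8, 10.9, 9.08 and 10.8. With a summit of 649 tags it ranked at position 380 among the 65879 untreated regions. Fos site 1 (chr12:86795846-86796938) followed, with a MaxD of 113 untreated, 40.9 with Dex, 41.99 with E2 and 57.6 with both hormones and an AveD of 31.4, 9.16, 12.3 and 16.2. At both sites the untreated interval (153 to 179 and 103 to 125) lay above all 3 hormone intervals. Relative to the library medians the first was 0.739-fold (0.636 to 0.858) after Dex, 0.845-fold (0.725 to 0.982) after E2 and 0.693-fold (0.597 to 0.801) after Dex+E2. The second was 0.738-fold (0.614 to 0.884) after Dex but 1.09-fold (0.922 to 1.29) after E2 and 0.990-fold (0.846 to 1.16) after Dex+E2.

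The site of the Fos window that stood apart was Fos site 5 (chr12:86826573-86827334). Its MaxD was 20.4 untreated, 12.2 with Dex, 14.6 with E2 and 22.01 with both hormones, with an AveD of 6.499, 3.34, 3.24 and 5.900. It was the 1 site of the 24 in all lists whose deposited MaxD was not lower in every hormone library (lower at 23 of 24, against 90.1% of all sites), and its Dex+E2 value was above the untreated one, with overlapping intervals (17.8 to 26.8 and 16.2 to 25.4). Relative to the medians it was 2.11-fold (1.52 to 2.94) after E2 and 2.104-fold (1.55 to 2.87) after Dex+E2, but 1.23-fold (0.846 to 1.77) after Dex alone. Among all sites in 4 lists, 7.88% were 2-fold higher after E2 and 7.19% after Dex+E2. These 2 calls did not hold for AveD, whose log2 ratios were 0.33 and 0.68, against 1.08 and 1.07 for MaxD. On the deposited scale the log2 ratios were -0.48 and 0.11. Fos site 9 (chr12:86860382-86861026) had a MaxD of 22.95 untreated, 12.2 with Dex, 9.999 with E2 and 12.3 with both hormones and an AveD of 6.51, 3.32, 3.44 and 3.599, and its 3 hormone values did not differ beyond their intervals.

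Between the dense sites lay weaker ones that dropped out of lists. Fos site 3 (chr12:86812882-86813786) had a MaxD of 22.2 untreated, 13.2 with Dex and 10.4 with both hormones (AveD 4.13, 2.63 and 2.397) and was not listed after E2. Fos site 4 (chr12:86814290-86815069) stood at 19.6 untreated and 12.5 with Dex (AveD 4.06 and 2.81) and was in neither list with E2. At Fos site 11 (chr12:86867872-86868502) the MaxD was 18.9 untreated and 8.39 with both hormones (AveD 5.65 and 2.07), with no listing after either hormone alone. Sites of 1 list were Fos site 6 (chr12:86828571-86829084) at 9.69 untreated (AveD 2.29) and Fos site 7 (chr12:86832890-86833477) at 14.03 untreated (AveD 3.63). The other two were each in 1 hormone list, Fos site 2 (chr12:86805782-86806136) at 8.57 with Dex (AveD 2.01) and Fos site 10 (chr12:86863787-86864238) at 9.76 with both hormones (AveD 2.31). None of these 4 reached a MaxD of 20. Outside the window, 3395 bp past its end, chr12:86873395-86874278 reached 17.1 with Dex and 25.2 with both hormones, and was in no list without Dex. It is no member, and other sites lay closer to a window's edge. These were chr8:87550379-87551031, 379 bp past the Junb window, and chr12:86758714-86759353, 647 bp before the Fos window, both in all 4 lists. Among the sites nearest to the edges of the windows, only the one at 3395 bp was in both lists with Dex and in no other.

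Fosl2, the other Fos family gene, had a broad dominant site at Fosl2 site 5 (chr5:32435782-32439154). Its MaxD was 81.4 untreated, 35.998 with Dex, 29.2 with E2 and 33.8 with both hormones, and its AveD 12.7, 6.998, 6.31 and 7.14. As deposited, the 3 hormone intervals overlapped each other and lay below the untreated one (72.7 to 90.8). Relative to the medians the site was 0.906-fold (0.740 to 1.11) after Dex, 1.06-fold (0.865 to 1.29) after E2 and 0.811-fold (0.663 to 0.988) after Dex+E2. After Dex+E2 the site was 0.765-fold (0.605 to 0.968) of E2. Next to it, Fosl2 site 7 (chr5:32440528-32442632) had a MaxD of 33.4 untreated, 16.4 with Dex, 5.799 with E2 and 12.7 with both hormones (AveD 5.49, 3.64, 1.54 and 2.798). Here the E2 library was lowest: relative to the medians the site was 0.512-fold (0.330 to 0.771) after E2, 1.01-fold (0.738 to 1.36) after Dex and 0.742-fold (0.532 to 1.02) after Dex+E2. That E2 ratio, a log2 of -0.97, is just short of the 2-fold limit and stood at percentile 0.590 among all 20687 sites. For AveD the log2 ratio was -0.50, and the E2 summit held 29 tags.

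A further 2 Fosl2 sites were in all lists. Fosl2 site 10 (chr5:32494131-32495183) had a MaxD of 27.3 untreated, 13.2 with Dex, 13.4 with E2 and 18.6 with both hormones (AveD 5.42, 3.44, 4.07 and 5.12), and relative to the medians it was 1.45-fold (1.05 to 1.98) after E2. After Dex+E2 it was 1.33-fold (0.985 to 1.79), an interval that includes 1. Fosl2 site 12 (chr5:32499935-32500650) had a MaxD of 25.8 untreated, 8.33 with Dex, 10.8 with E2 and 11.6 with both hormones (AveD 6.898, 1.91, 3.66 and 3.06), with Dex the lowest (0.662-fold, 0.435 to 0.985). Sites listed with E2 and Dex+E2 but in neither other library were Fosl2 site 4 (chr5:32423151-32423743), at 5.599 with E2 and 11.8 with both hormones (AveD 1.17 and 3.76), and Fosl2 site 15 (chr5:32518527-32519012), at 5.999 with E2 and 7.49 with both hormones (AveD 1.46 and 1.82). The first was the denser after co-treatment, and its 2 intervals (3.72 to 8.09 and 8.81 to 15.5) did not overlap as deposited. Relative to the library medians it was 1.39-fold (0.864 to 2.29) higher after Dex+E2 than after E2, an interval that includes 1.

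The remaining Fosl2 sites were weak and came from 1 or 2 lists. Fosl2 site 2 (chr5:32391585-32392355) was at 16.8 untreated and 7.102 with Dex (AveD 3.73 and 1.51), Fosl2 site 8 (chr5:32448546-32449154) at 7.59 with Dex and 7.49 with both hormones (AveD 2.21 and 1.97). Fosl2 site 11 (chr5:32498289-32498784) had 7.91 untreated and 5.67 with both hormones (AveD 2.02 and 1.36). In untreated cells alone, Fosl2 site 6 (chr5:32439503-32440067) reached 10.5 (AveD 2.76), Fosl2 site 14 (chr5:32511817-32512336) 8.16 (2.47), Fosl2 site 1 (chr5:32379649-32380016) 7.396 (2.096) and Fosl2 site 9 (chr5:32461817-32462323) 6.63 (1.03). Of these, Fosl2 site 1 reaches into the window by 17 bp. After co-treatment alone Fosl2 site 3 (chr5:32404311-32404794) reached 8.17 (2.33) and Fosl2 site 13 (chr5:32503278-32503826) 7.26 (2.09). The highest of these values was the 16.8 of Fosl2 site 2.

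**Figure D2:**
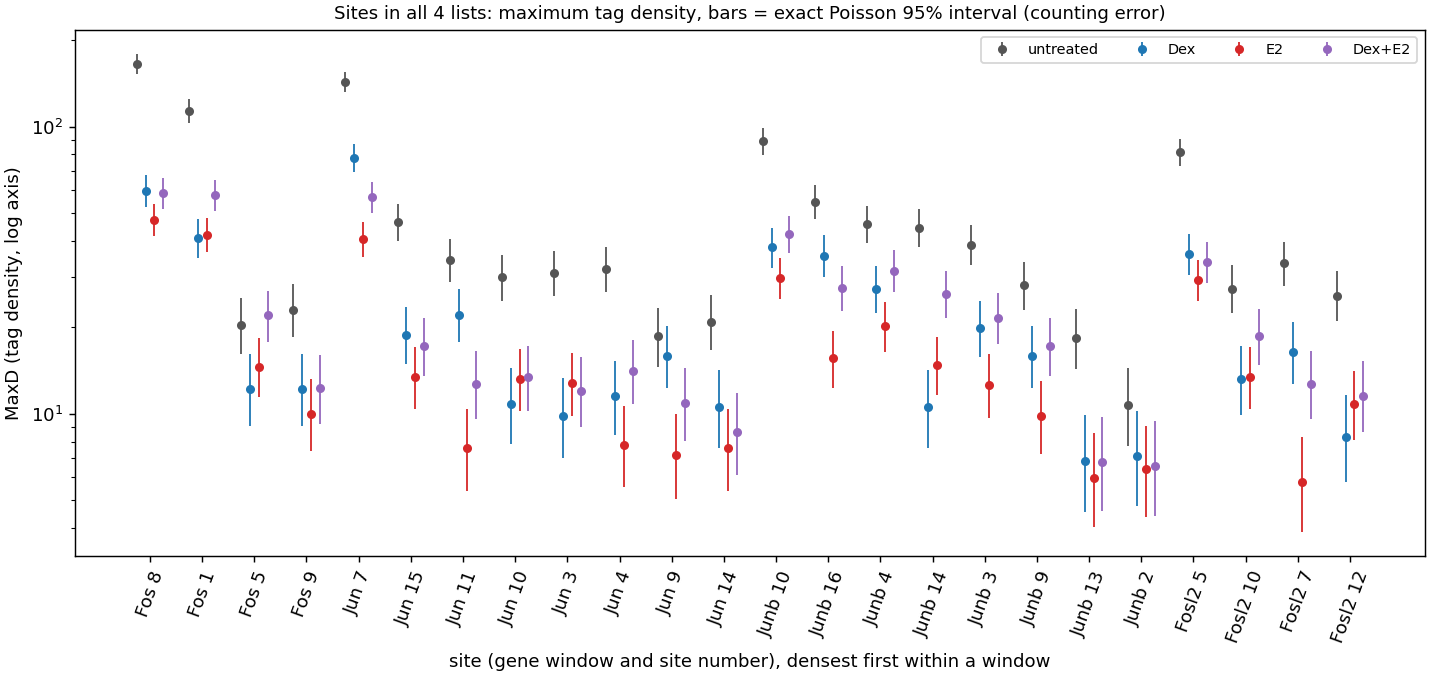
MaxD (tag density, log axis) of the 24 sites in all 4 lists, with 1 point per library and exact Poisson 95% intervals for counting error as bars, sites ordered by mean MaxD within each window. Untreated points are the highest at 23 of 24 sites, the exception being Fos site 5 at 20.4 against 22.0 after Dex+E2.

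Jun, which encodes the founding protein of the Jun family, had the widest site of the 4 windows at Jun site 7 (chr4:94716447-94720954), spanning 4507 bp. Its MaxD was 143 untreated, 77.6 with Dex, 40.6 with E2 and 56.7 with both hormones, and its AveD 22.6, 13.9, 8.09 and 11.8. As deposited, all 4 intervals were separate, in the order untreated (131 to 155), Dex (69.3 to 86.7), Dex+E2 (49.9 to 64.2) and E2 (35.2 to 46.6). Relative to the library medians, Dex was 1.11-fold (0.965 to 1.28), E2 0.837-fold (0.710 to 0.985) and Dex+E2 0.773-fold (0.664 to 0.899). Dex+E2 was 0.696-fold (0.587 to 0.824) of Dex and 0.924-fold (0.764 to 1.12) of E2, and the second of these intervals includes 1. Jun site 15 (chr4:94771803-94773267) was next, with 46.4 untreated, 18.9 with Dex, 13.4 with E2 and 17.2 with both hormones (AveD 8.96, 4.06, 2.92 and 3.102), and its 3 hormone intervals overlapped.

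The site Jun site 11 (chr4:94764217-94765565) distinguished Dex from E2. Its MaxD was 34.4 untreated, 22.04 with Dex, 7.599 with E2 and 12.7 with both hormones (AveD 9.06, 4.09, 1.898 and 3.43). The Dex interval (17.7 to 27.1) lay above the E2 (5.38 to 10.4) and Dex+E2 (9.60 to 16.5) intervals. Relative to the medians Dex was 2.01-fold (1.36 to 3.02) of E2, the 1 site of the 24 to pass 2-fold in that direction (3.42% of all sites in 4 lists did), and it fell short of the limit for AveD (log2 0.77) and when medians of the same density decile were used (0.95). Dex+E2 was 0.549-fold (0.386 to 0.775) of Dex, a log2 ratio of -0.87 that was -0.44 for AveD. Jun site 9 (chr4:94748903-94749798) had a similar order, with 18.6 untreated, 15.9 with Dex, 7.199 with E2 and 10.9 with both hormones (AveD 4.61, 3.39, 2.12 and 3.02), and was 1.75-fold (1.23 to 2.48) after Dex relative to untreated, the highest Dex ratio of the 24 sites.

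Among the Jun sites in all lists, 3 had the lowest ratios of Dex over untreated relative to the medians. Jun site 15 was also below 1, at 0.832-fold. Jun site 3 (chr4:94667779-94668683) had 30.9 untreated, 9.795 with Dex, 12.8 with E2 and 12.02 with both hormones (AveD 6.54, 2.28, 3.696 and 3.32), and its Dex ratio was 0.650-fold (0.443 to 0.937). Jun site 10 (chr4:94750498-94751242) had 29.8 untreated, 10.8 with Dex, 13.2 with E2 and 13.4 with both hormones (AveD 7.297, 2.402, 3.52 and 3.900), a Dex ratio of 0.740-fold (0.511 to 1.05). At Jun site 4 (chr4:94692317-94693216) the MaxD was 31.9 untreated, 11.5 with Dex, 7.799 with E2 and 14.1 with both hormones (AveD 8.24, 2.88, 2.63 and 4.23), with 0.739-fold (0.517 to 1.04). The first of these intervals excludes 1 and the other two include it. Jun site 14 (chr4:94767063-94767995) had 20.9 untreated, 10.5 with Dex, 7.599 with E2 and 8.62 with both hormones (AveD 4.96, 2.51, 1.999 and 1.89), and its hormone intervals overlapped.

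The weaker Jun sites were each missing from at least 1 list. They were not in the E2 list, the shortest of the 4 with 35496 regions. Jun site 5 (chr4:94702011-94702795) was at 19.1 untreated, 6.37 with Dex and 7.94 with both hormones (AveD 4.37, 1.18 and 1.93) and was not listed after E2. Jun site 8 (chr4:94748144-94748815) reached 8.08 with Dex and 11.6 with both hormones (AveD 2.23 and 2.97) and Jun site 12 (chr4:94765701-94766060) 7.35 with Dex and 6.35 with both hormones (AveD 1.31 and 1.13), both in the 2 lists with Dex only. These lie 88 bp before Jun site 9 and 136 bp after Jun site 11. Dex alone gave Jun site 1 (chr4:94665930-94666394) at 7.102 (AveD 1.89) and Jun site 13 (chr4:94766706-94767052) at 7.84 (1.53). Jun site 13 ends 11 bp before Jun site 14, which is in all 4 lists. Dex+E2 alone gave Jun site 2 (chr4:94666758-94667165) at 6.13 (1.71), and untreated cells alone Jun site 6 (chr4:94714768-94715235) at 8.16 (1.65). All of these weaker Jun sites were under a MaxD of 20. Of all sites in the series, 14.3% were in the Dex list alone and 1.92% in the 2 lists with Dex only. The Dex+E2 list alone held 11.5% and the untreated list alone 26.0%. Among the 57 members these shares were 5.26%, 5.26%, 7.02% and 15.8%, and the differences were not tested.

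Junb encodes a Jun family protein that can dampen as well as drive AP-1 activity. The densest site of its window was Junb site 10 (chr8:87503163-87506562), with a MaxD of 88.8 untreated, 37.96 with Dex, 29.6 with E2 and 42.2 with both hormones and an AveD of 13.03, 6.06, 7.27 and 8.799. As deposited, the Dex (32.2 to 44.4), E2 (25.02 to 34.8) and Dex+E2 (36.4 to 48.7) intervals differed only between E2 and Dex+E2. Relative to the medians Dex+E2 was 0.943-fold (0.755 to 1.18) of E2, an interval that includes 1. Relative to the medians the site was 0.876-fold (0.720 to 1.06) after Dex, 0.984-fold (0.806 to 1.196) after E2 and 0.927-fold (0.772 to 1.11) after Dex+E2, so that every interval includes 1. Junb site 16 (chr8:87548930-87549831) had 54.8 untreated, 35.5 with Dex, 15.6 with E2 and 27.5 with both hormones (AveD 12.4, 7.54, 3.99 and 6.33), and Junb site 4 (chr8:87489396-87491045) 45.7 untreated, 27.2 with Dex, 20.2 with E2 and 31.5 with both hormones (AveD 12.1, 5.42, 5.66 and 7.12). Relative to the medians the first was 1.33-fold (1.07 to 1.64) after Dex, 0.839-fold (0.639 to 1.09) after E2 and 0.977-fold (0.775 to 1.23) after Dex+E2. The second was 1.22-fold (0.954 to 1.55), 1.31-fold (1.01 to 1.68) and 1.35-fold (1.07 to 1.69), and its AveD log2 ratio after Dex was -0.16.

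The highest fold between any 2 libraries, relative to the medians, was at Junb site 14 (chr8:87513524-87514752). Its MaxD was 44.4 untreated, 10.5 with Dex, 14.8 with E2 and 26.1 with both hormones, and its AveD was 12.3, 2.78, 5.35 and 7.56. Dex alone was thus the lowest library, and its interval (7.62 to 14.2) lay below the untreated (38.0 to 51.5) and the Dex+E2 interval (21.5 to 31.3) but overlapped that of E2 (11.6 to 18.6). Relative to the medians the site was 0.486-fold (0.340 to 0.682) after Dex, 0.984-fold (0.739 to 1.299) after E2 and 1.15-fold (0.898 to 1.46) after Dex+E2. Dex+E2 was 2.36-fold (1.65 to 3.43) of Dex. Of the 24 members in all lists it was the 1 site that was 2-fold lower after Dex than untreated, where 0.595% of all 20687 sites are, and the 1 site that was 2-fold higher after Dex+E2 than after Dex, where 1.84% are. The co-treatment term, the log2 ratio of Dex+E2 minus those of Dex and E2, each against untreated, was 1.26, the highest among the members. AveD gave ratios of the same direction and past the limit, with log2 -1.14 for Dex over untreated and 1.26 for Dex+E2 over Dex.

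Between this site and the densest one lay a site of both E2 libraries. Junb site 12 (chr8:87508288-87509318) had a MaxD of 6.799 with E2 and 19.1 with both hormones (AveD 1.96 and 4.92), with intervals of 4.71 to 9.50 and 15.2 to 23.6, and was in neither list without E2. Relative to the medians it was 1.85-fold (1.23 to 2.85) higher after Dex+E2 than after E2. It ends 11 bp before Junb site 13 (chr8:87509329-87510136), which had 18.4 untreated, 6.86 with Dex, 5.999 with E2 and 6.81 with both hormones (AveD 3.71, 1.25, 1.28 and 1.83). Junb site 13 itself was 0.945-fold (0.546 to 1.64) for Dex+E2 over Dex, and Junb site 12 has no Dex value.

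Further sites of the Junb window in all lists were Junb site 3 (chr8:87483539-87484347), with 38.8 untreated, 19.8 with Dex, 12.6 with E2 and 21.6 with both hormones (AveD 10.5, 4.58, 4.199 and 5.396), Junb site 9 (chr8:87502219-87503092), with 28.1 untreated, 15.9 with Dex, 9.799 with E2 and 17.2 with both hormones (AveD 6.05, 3.57, 2.36 and 4.303), and Junb site 2 (chr8:87480574-87481148), with 10.7 untreated, 7.102 with Dex, 6.399 with E2 and 6.58 with both hormones (AveD 3.38, 2.302, 1.92 and 2.55). Junb sites 3 and 9 kept the order untreated, Dex+E2, Dex, E2 from highest to lowest, as did 6 of the 24 members (25%) and 39.1% of all sites in 4 lists. The commonest order of the members, 11 of 24 (45.8%, all sites 35.5%), was untreated, Dex, Dex+E2, E2. Junb site 7 (chr8:87498781-87500966) had 24.995 untreated, 9.31 with Dex and 7.26 with both hormones (AveD 4.38, 2.08 and 2.17) and, with Fos site 3, was 1 of 2 members with an untreated MaxD of at least 20 that was missing after E2. There were 23 such dense members, all of them in the Dex and the Dex+E2 lists. In the series 4.71% of untreated sites this dense were missing after E2, 0.989% after Dex and 1.15% after Dex+E2.

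The remaining Junb sites were all in the untreated list. Junb site 8 (chr8:87501166-87501715) had 10.7 untreated, 7.35 with Dex and 7.26 with both hormones (AveD 2.56, 2.07 and 2.24). In the untreated and Dex lists only were Junb site 1 (chr8:87476572-87477226), at 14.5 untreated and 8.33 with Dex (AveD 3.31 and 1.87), Junb site 15 (chr8:87521700-87522286), at 11.2 untreated and 7.102 with Dex (AveD 3.12 and 1.58), and Junb site 5 (chr8:87493336-87493812), at 9.18 untreated and 6.61 with Dex (AveD 2.13 and 1.76). Untreated cells alone had Junb site 6 (chr8:87498144-87498577) at 8.93 (AveD 2.48) and Junb site 11 (chr8:87506619-87506955) at 8.42 (1.87). No site of this window was in the Dex list alone or in the Dex+E2 list alone.

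In each window the densest site was 1 continuous region in untreated cells and was listed as 2 regions in each of the 3 hormone libraries. At Jun, for example, the untreated region chr4:94716447-94720932 stood against chr4:94716533-94717075 (MaxD 8.33) and chr4:94718246-94720954 (77.6) after Dex. At Fos the Dex regions were chr12:86837695-86838183 (9.31) and chr12:86838191-86839299 (59.8), at Junb chr8:87503163-87504358 (22.8) and chr8:87504581-87506562 (38.0), and at Fosl2 chr5:32435865-32436625 (19.6) and chr5:32437157-32438709 (36.0). This was noticed after the values were seen. Among all 656 sites of the series that were in 4 lists and at least as dense and as wide as these, 72 (10.98%) showed it. Regions were narrower in hormone libraries in general: at the 24 sites the median covered length was 886 bp untreated, 769.5 with Dex, 637 with E2 and 689.5 with both hormones, beside 959, 789, 634 and 746 over all sites in 4 lists. The lower deposited densities of the hormone libraries move with this, and their part in it was not tested.

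For activation of GR alone, Dex over untreated, the 33 member sites in both lists held no site that was 2-fold higher relative to the medians and 1 that was 2-fold lower, Junb site 14. Of all 31784 sites in both lists 11.8% were 2-fold higher and 0.406% lower, and among the 20687 in all 4 lists 6.69% and 0.595%. The median log2 ratio of the 24 members in all lists was -0.0012, against -0.0085 for all such sites, with 12 members above 0 and 12 below. Of the 39 Dex sites 6 (15.4%) were not in the untreated list, against 35.5% in the series, and these 6 had a MaxD of 7.10 to 8.57. In the other direction 11 of 44 untreated sites (25%, series 51.3%) were missing after Dex, with a MaxD of up to 18.9.

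For ER alone, E2 over untreated, 1 of 24 sites was 2-fold higher, Fos site 5, and none was lower. In the series 14.4% of the 24486 sites in both lists were higher and 0.38% lower, and among those in all 4 lists 7.88% and 0.445%. Members had a median log2 ratio of 0.06, against 0.0012 for all sites in 4 lists, and ranged from -0.97 at Fosl2 site 7 to 1.08. Of the 27 sites in the E2 list, 3 were not in the untreated list (11.1%, series 27.6%): Junb site 12 and Fosl2 sites 4 and 15. These 3 were in the 2 lists with E2 only, a pattern of 5.26% of the members and 1.32% of all sites. Junb site 12 lies 11 bp from Junb site 13, and joined with it would be in all 4 lists. All 27 E2 sites were in the Dex+E2 list, whereas 28.5% of all E2 sites of the series were missing there. By contrast 20 of 44 untreated sites (45.5%, series 62.5%) were missing after E2, with a MaxD of up to 24.995.

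Co-treatment over untreated gave 1 of 30 sites that was 2-fold higher, again Fos site 5, and none lower, beside 10.7% and 1.09% of 32130 sites in the series. The median log2 ratio of the members was -0.15, against 0.0097 for all sites in 4 lists. Below 0 were 7 of the 8 Jun sites in all lists (median -0.34) and 3 of the 8 Junb sites (median 0.16), beside 10171 of all 20687 sites. Of 40 Dex+E2 sites 10 (25%, series 32.7%) were not in the untreated list, and 14 of 44 untreated sites (31.8%, series 50.8%) were missing after Dex+E2. These 3 comparisons share the untreated library.

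**Figure D3:**
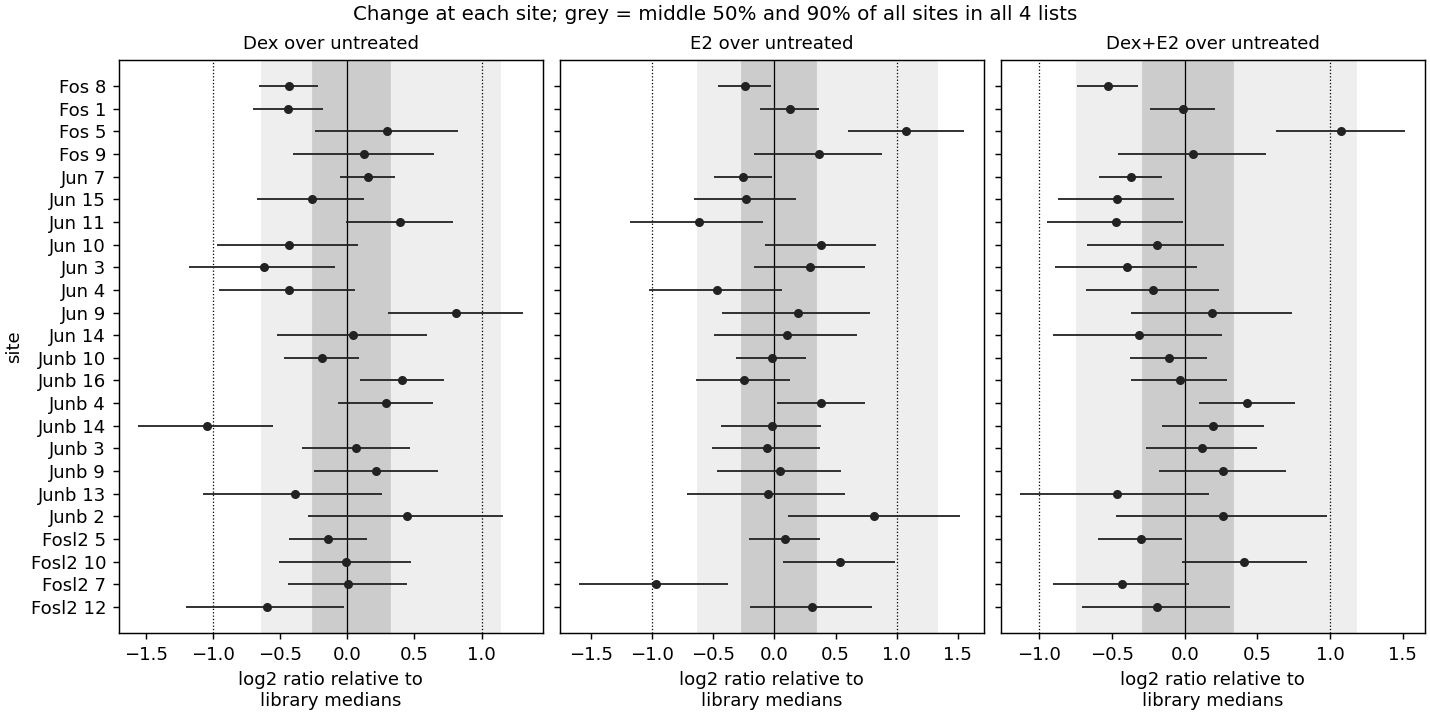
Log2 ratio of MaxD to untreated, relative to library medians, at the 24 sites in all 4 lists (rows) after Dex, E2 and Dex+E2, with exact 95% intervals for counting error. The light and dark grey bands hold the middle 90% and 50% of all 20687 sites and dotted lines mark 2-fold; Junb site 14 after Dex (-1.04) and Fos site 5 after E2 (1.08) and Dex+E2 (1.07) lie past them.

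The effect of adding a hormone to the other was read from Dex+E2 over Dex and Dex+E2 over E2. E2 added to Dex left 1 of 31 sites 2-fold higher, Junb site 14, and none lower, beside 1.58% and 1.32% of 29066 sites in the series. The lowest MaxD ratio was at Jun site 11, with a log2 of -0.87. For AveD it was -0.44 there, and Jun site 14 was lower at -0.59. Of 40 Dex+E2 sites 9 (22.5%, series 39.1%) were not in the Dex list and 8 of 39 Dex sites (20.5%, series 41.1%) were not in the Dex+E2 list. When Dex was added to E2, none of 27 sites passed 2-fold in either direction, beside 1.66% higher and 1.2% lower of the 24166 sites in both lists, and 1.78% and 1.04% of those in all 4, and log2 ratios ran from -0.69 at Jun site 3 to 0.89 at Junb site 12. Of these 40 sites 13 (32.5%, series 49.4%) were not in the E2 list, with a MaxD of up to 11.6. Set directly against E2, Dex was 2-fold higher at Jun site 11 and 2-fold lower at Junb site 14, out of 24 sites, beside 3.22% and 2.68% of the series (3.42% and 2.73% of sites in all 4 lists). Of the 27 E2 sites 3 were not in the Dex list (11.1%, series 34.1%). The 4 Fos sites in all lists had log2 ratios of Dex over E2 from -0.19 to -0.78 relative to the medians, where 11040 of all 20687 sites are below 0. The intervals of Fos sites 8 and 9 include 1 (0.729 to 1.05 and 0.563 to 1.28), and as deposited both were higher after Dex (log2 0.33 and 0.29). Members past 2-fold numbered 0 or 1 in each comparison and direction, and these counts were not tested against the shares of the series.

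Dex was read both without E2 (against untreated) and on top of E2 (against E2 alone), 2 comparisons with no common library, and E2 likewise without and on top of Dex. In the Dex pair 7 of 24 members were above 0 in both and 10 below 0 in both (29.2% and 41.7%), beside 24.99% and 29.2% of all sites. For E2 it was 8 and 7 (33.3% and 29.2%), beside 28.8% and 30.3%. No member was 2-fold higher or 2-fold lower in both comparisons of either hormone. The co-treatment term was at least 1 at 1 of 24 members, Junb site 14, and at most -1 at none, against 1.06% and 8.01% of all sites. Its median was -0.09 over the members and -0.02 over all sites, and the lowest value was at Junb site 2, -0.998, which was -0.56 for AveD and -0.28 with medians of the same density decile. With those decile medians the lowest was Jun site 9, at -0.77.

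**Figure D4:**
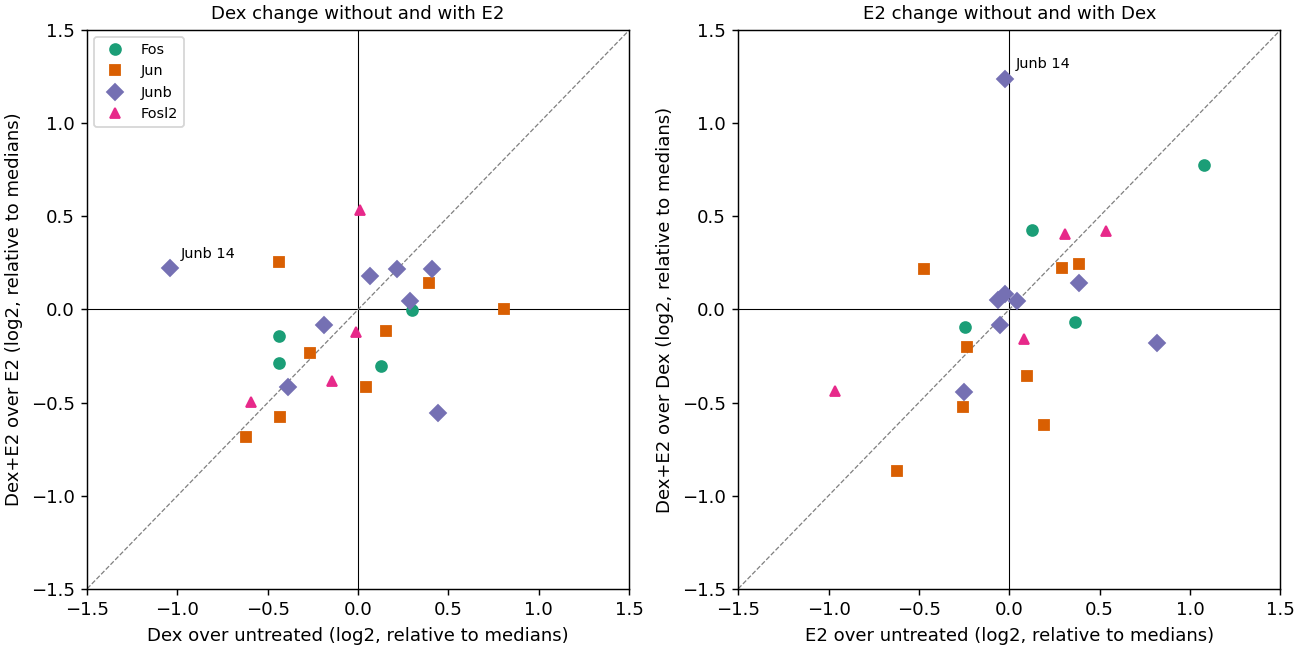
Log2 ratios of the 24 sites, relative to library medians, for Dex without (x axis) and with E2 (y axis) on the left and for E2 without and with Dex on the right, 1 point per site and 1 symbol per gene window, with the dashed line of equal ratios. Junb site 14 is apart from the rest, with -1.04 and 0.22 on the left and -0.02 and 1.24 on the right.

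The profiles of the dominant sites over the 3 ratios to untreated are common in the genome. Within 0.25 log2 units in all 3 ratios of Junb site 10 lay 2860 other sites (13.8% of 20663), of Fosl2 site 5 1771 (8.57%), of Jun site 7 1349 (6.53%) and of Fos site 8 1217 (5.89%). Most alike to Fos site 8 were chr5:37103739-37105056 and chr15:11765508-11766213, with a largest difference of 0.04 log2 units each. Those for Jun site 7 were chr12:112709064-112710564 and chr1:88400141-88401445 (0.02 each). For Junb site 10 they were chr5:140302428-140303198 and chr9:72562521-72563361 (0.02 each), and for Fosl2 site 5 chr2:132512287-132513116 and chrX:103124068-103125237 (0.02 each). Likeness was the largest difference over the 3 ratios, each over the same 4 libraries.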

How the data were processed

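DNase-seq lists of hypersensitive regions, 1 per library and condition, were analysed. The submitters' processing notes name mm9 as the build and CASAVA 1.8 as a tool without stating its role. Which aligner and region caller were used is not given in the sources used here. Regions have, per the file headers, MaxD and AveD, signal values (tag densities) that the authors deposited, a deposited Z score and a deposited p-value. The scores and p-values were not compared between libraries. If all libraries were scaled to the same total, which is not stated, the E2 library was 1.28 times, the Dex+E2 library 1.12 times and the Dex library 1.04 times as deep as that of untreated cells.

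MaxD was a whole multiple of the step of 1 tag, within 0.02 tags, at 100% of regions. Regions of the 4 lists that overlapped by at least 1 bp were merged into sites, and a site takes in each library its highest MaxD and its highest AveD, which for a site of 2 regions need not come from the same region. Ratios were computed with each library divided by its median over the 20687 sites that all 4 lists share. A call means a ratio of at least 2-fold, with no test, since each group has 1 library. Named sites are the 3 densest per window, those past 2-fold and those with a MaxD of at least 20 missing from a list, and all others are given with their values because the selection rule asks for every site. The windows, members, motifs and comparisons were chosen with earlier results of these data known. The functions were tested on simulated data. Alternatives covered the density measure, scaling, fold limit, joining of regions, list length and window width. An AP-1 family list that also names Fosb, Fosl1, Jund, Atf3 and Batf was not used, since no mm9 annotation was at hand. Merging and ratios were done in pandas 2.3.3, intervals in SciPy 1.17.1 with NumPy 2.4.6, and plots in Matplotlib 3.10.9, under Python 3.11.15.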

Additional observations from a re-analysis of the deposited data

How the results depend on the processing

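With densities as deposited, 2-fold lower members against untreated numbered 16 (Dex), 22 (E2) and 17 (Dex+E2), beside 1, 0 and 0 relative to the medians, and the number higher after E2 or Dex+E2 went from 1 each to 0. Dex+E2 over E2 then had 3 higher, and Dex over E2 had 4 higher and 0 lower. The median log2 ratios of the members as deposited were -1.04 (Dex), -1.498 (E2) and -1.11 (Dex+E2) against untreated, 0.48 for Dex+E2 over E2, 0.35 for Dex over E2 and 1.54 for the co-treatment term. All sites in 4 lists had deposited medians of -1.04 (Dex), -1.56 (E2) and -0.95 (Dex+E2) against untreated. Dividing by the library medians shifts every site of a comparison by the same amount. Fos site 5 turned from 1.08 to -0.48 for E2 over untreated. For AveD, E2 and Dex+E2 over untreated had 0 higher, Dex+E2 over E2 had 1 higher (Fosl2 site 4), and Dex over E2 had 0 higher and 3 lower. Medians of the same density decile left 0 higher for Dex over E2. Joining within 150 bp gave 2 higher for Dex+E2 over Dex, where the joined pair of Junb sites 12 and 13 takes its Dex+E2 value from the first and its Dex value from the second. A limit of 4-fold relative to the medians left 0 calls in all 6 comparisons. At 1.5-fold the members higher and lower against untreated were 1 and 3 (Dex), 2 and 2 (E2) and 1 and 1 (Dex+E2), and they were 2 and 2 for Dex+E2 over Dex, 1 and 1 for Dex+E2 over E2, and 4 and 5 for Dex over E2. Widening the windows by 50 kb raised the regions from 44 to 64 (untreated), 44 to 64 (Dex), 31 to 49 (E2) and 45 to 65 (Dex+E2). Of these, only the E2 count passed 1.5 times its main count. The other 72 values, from these alternatives or from lists of equal length and a 50% overlap rule, stayed within 1.5 times the main count or within 0.49 log2 units, the median reach of a member's counting interval to either side. Junb site 14 kept its direction under the scalings and density measures run for Dex over untreated (log2 -1.14 for AveD, -2.08 as deposited), Dex+E2 over Dex, Dex over E2 and the co-treatment term. Its ratios near 0 did not: Dex+E2 over untreated went from 0.20 to -0.77 as deposited, and for AveD E2 over untreated went from -0.02 to 0.13 and Dex+E2 over E2 from 0.22 to -0.02.

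No paired analysis was possible because each condition has 1 library. For the same reason no fit without a library was run. At this depth the median member's log2 ratio has a counting interval of 0.49 to either side, so smaller changes were mostly not detectable. Differences between cultures or in digestion between the 4 libraries cannot be told apart from the treatments.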
